A study of Homo sapiens with 24 samples.

Results

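The CYP4F genes encode fatty acid and eicosanoid hydroxylases of the cytochrome P450 superfamily, and their mRNA was followed here in 2 biliary tract cancer cell lines treated with sorafenib. The 6 genes are CYP4F2, CYP4F3, CYP4F8, CYP4F11, CYP4F12 and CYP4F22, matched by symbol to 6 of the 78724 gene IDs counted. They were chosen by name, from a list drawn up with measured values of these same libraries in view, and the contrast that drew attention to them is not recorded. Their levels, fold changes and calls are therefore a description, given without p-values. The 24 libraries are bulk RNA sequencing of OCUG-1, a gallbladder cancer line kept in DMEM, and HuCCT1, an intrahepatic cholangiocarcinoma line kept in RPMI-1640. Each line had 4 arms of 3 biological replicates, all harvested after 72 h. The arms were DMSO vehicle, 1.25 µM sorafenib, 10 µM sorafenib, and 1.25 µM sorafenib combined with 1 µM IACS-010759. Sorafenib is a multikinase inhibitor, and IACS-010759 is an inhibitor of mitochondrial complex I. No arm with IACS-010759 alone was analysed here, so its effect was read against 1.25 µM sorafenib. Each tumour site is represented by a single line and each line by its own medium, so that line and medium cannot be told apart.

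Cytochrome P450 enzymes of this family sit in the endoplasmic reticulum and use electrons from P450 reductase to place a hydroxyl group at or near the end of a fatty acid chain. The omega-hydroxylated product can then be oxidised to a dicarboxylic acid and shortened in peroxisomes, which is a known route for inactivating leukotriene B4 and prostaglandins. CYP4F2 and CYP4F3 also form 20-hydroxyeicosatetraenoic acid (20-HETE) from arachidonic acid, and in the liver CYP4F2 begins the breakdown of vitamins E and K1.

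All 6 genes lie on chromosome 19 within 426.4 kb, from position 15508493 to position 15934867 of GRCh38 (GENCODE release 29). CYP4F22 (ENSG00000171954, 15508493 to 15552317), CYP4F8 (ENSG00000186526, 15615218 to 15630638), CYP4F3 (ENSG00000186529, 15640897 to 15662825) and CYP4F12 (ENSG00000186204, 15672757 to 15697174) follow each other on the plus strand. CYP4F2 (ENSG00000186115, 15878023 to 15898120) and CYP4F11 (ENSG00000171903, 15912367 to 15934867) stand at the far end on the minus strand. The transcribed pseudogene CYP4F23P (15564074 to 15584709) lies between CYP4F22 and CYP4F8. Coding sequences were 1560 to 1593 bases long, and their identity ran from 68.9% between CYP4F22 and CYP4F8 to 94.6% between CYP4F2 and CYP4F3. Reads can be assigned wrongly where copies are identical. Of all 100-base windows of annotated transcripts, CYP4F2 and CYP4F3 shared 93, which is 2.56% of the windows of CYP4F2 and 1.56% of those of CYP4F3. CYP4F8, CYP4F11, CYP4F12, CYP4F22 and CYP4F23P shared 0 windows with any other CYP4F locus.

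Promoter sequence from RefSeq (GRCh38.p14), running from 250 bases before the start site to 50 bases after it, was found for 5 of the 6 genes, with 2 start sites for CYP4F11. CYP4F12 was not in the table. Promoters of 4 genes called lower in OCUG-1 are shown, because they differ in their matches to 1 motif. Capitals mark each match to the CCAAT box, read here as ATTGG because every match lies on the opposite strand. CYP4F8 is chr19:15614968-15615267 (plus strand), CYP4F2 is chr19:15898025-15898324 (minus strand), CYP4F11 at its first start site is chr19:15934818-15935117 (minus strand), and CYP4F3 is chr19:15641062-15641361 (plus strand).
CYP4F8: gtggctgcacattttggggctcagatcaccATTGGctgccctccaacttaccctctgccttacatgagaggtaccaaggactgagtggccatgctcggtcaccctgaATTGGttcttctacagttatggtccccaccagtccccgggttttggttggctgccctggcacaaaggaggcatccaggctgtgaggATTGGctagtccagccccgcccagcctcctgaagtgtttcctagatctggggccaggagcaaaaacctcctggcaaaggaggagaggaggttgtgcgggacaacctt
CYP4F2: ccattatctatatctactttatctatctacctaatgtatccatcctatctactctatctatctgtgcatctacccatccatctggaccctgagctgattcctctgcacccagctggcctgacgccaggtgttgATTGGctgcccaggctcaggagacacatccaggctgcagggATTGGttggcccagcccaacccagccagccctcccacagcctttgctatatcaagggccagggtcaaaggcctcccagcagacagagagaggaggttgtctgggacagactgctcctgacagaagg
CYP4F11: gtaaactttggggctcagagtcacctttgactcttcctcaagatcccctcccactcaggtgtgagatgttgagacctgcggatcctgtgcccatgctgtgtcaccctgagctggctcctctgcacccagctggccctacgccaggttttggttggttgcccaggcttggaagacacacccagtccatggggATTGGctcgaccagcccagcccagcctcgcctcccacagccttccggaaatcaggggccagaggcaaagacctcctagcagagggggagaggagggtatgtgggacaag
CYP4F3: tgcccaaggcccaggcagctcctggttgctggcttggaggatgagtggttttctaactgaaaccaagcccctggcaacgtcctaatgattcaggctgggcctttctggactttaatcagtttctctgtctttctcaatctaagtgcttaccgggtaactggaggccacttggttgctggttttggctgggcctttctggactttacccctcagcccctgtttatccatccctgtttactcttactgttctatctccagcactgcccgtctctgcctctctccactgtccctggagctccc
The CCAAT box, searched as CCAAT on both strands, occurred in 34.6% of 35116 promoters of this length, and at least 2 matches occurred in 10.8%. CYP4F8 held 3 matches, starting at positions -220, -143 and -57 from the start site. CYP4F2 held 2, at positions -117 and -76, and CYP4F11 held 1 at each of its start sites, at positions -59 and -47. CYP4F3 and CYP4F22 held no match. The CYP4F3 window lies inside the annotated gene, which begins at position 15640897, so the sequence before that position was not searched. The first promoter of CYP4F11 was 74.6% identical to that of CYP4F2 and 73.0% identical to that of CYP4F8 over the aligned bases. The second promoter of CYP4F11 was most like that of CYP4F3, at 78.1%, and both hold the letters TGATTCA, at position -137 in CYP4F11 and -165 in CYP4F3. This is a match to TGANTCA, a loose form of the AP-1 site that was searched on both strands and occurred in 7.71% of promoters. Searches on both strands for AGGTCA, TGATGNAA, TCACNCCAC and TATAAA found no match in the promoters of these genes. A match or its absence concerns the letters in this window only.

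Levels are given in CPM, a gene's count relative to the size of its library after scaling with TMM factors over all 24 libraries, and a level of 3 counts corresponded to between 0.102 and 0.213 CPM per library. The family was far more abundant in OCUG-1 than in HuCCT1. In vehicle, the 6 genes summed to 202.6 ± 18.0 CPM in OCUG-1 and 4.48 ± 0.173 CPM in HuCCT1 (SD, n = 3 each). In vehicle, CYP4F3, CYP4F12 and CYP4F11 were called higher in OCUG-1 than in HuCCT1, beside 68.3% of all 22944 genes called in either direction. CYP4F8 and CYP4F2 passed the filter on low counts only through OCUG-1, so their call as higher there was fixed by how they entered. CYP4F3 differed by 5.22 ± 0.29 on the log2 scale (SE), CYP4F12 by 5.10 ± 0.26 and CYP4F11 by 4.28 ± 0.18. CYP4F8 had 3987 counts in the 3 OCUG-1 vehicle libraries and 2 in the 3 HuCCT1 ones, a ratio of 2540 after scaling with an exact 95% counting interval of 703 to 20980. CYP4F2 had 147 counts in OCUG-1 and 3 in HuCCT1, a ratio of 62.4 with an interval of 21.0 to 306.2. The intervals cover counting error only. For CYP4F3, CYP4F12 and CYP4F11 no OCUG-1 vehicle library overlapped a HuCCT1 one. The share of all genes without overlap is not given here, so this is not read as a trait of the family.

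**Figure D1:**
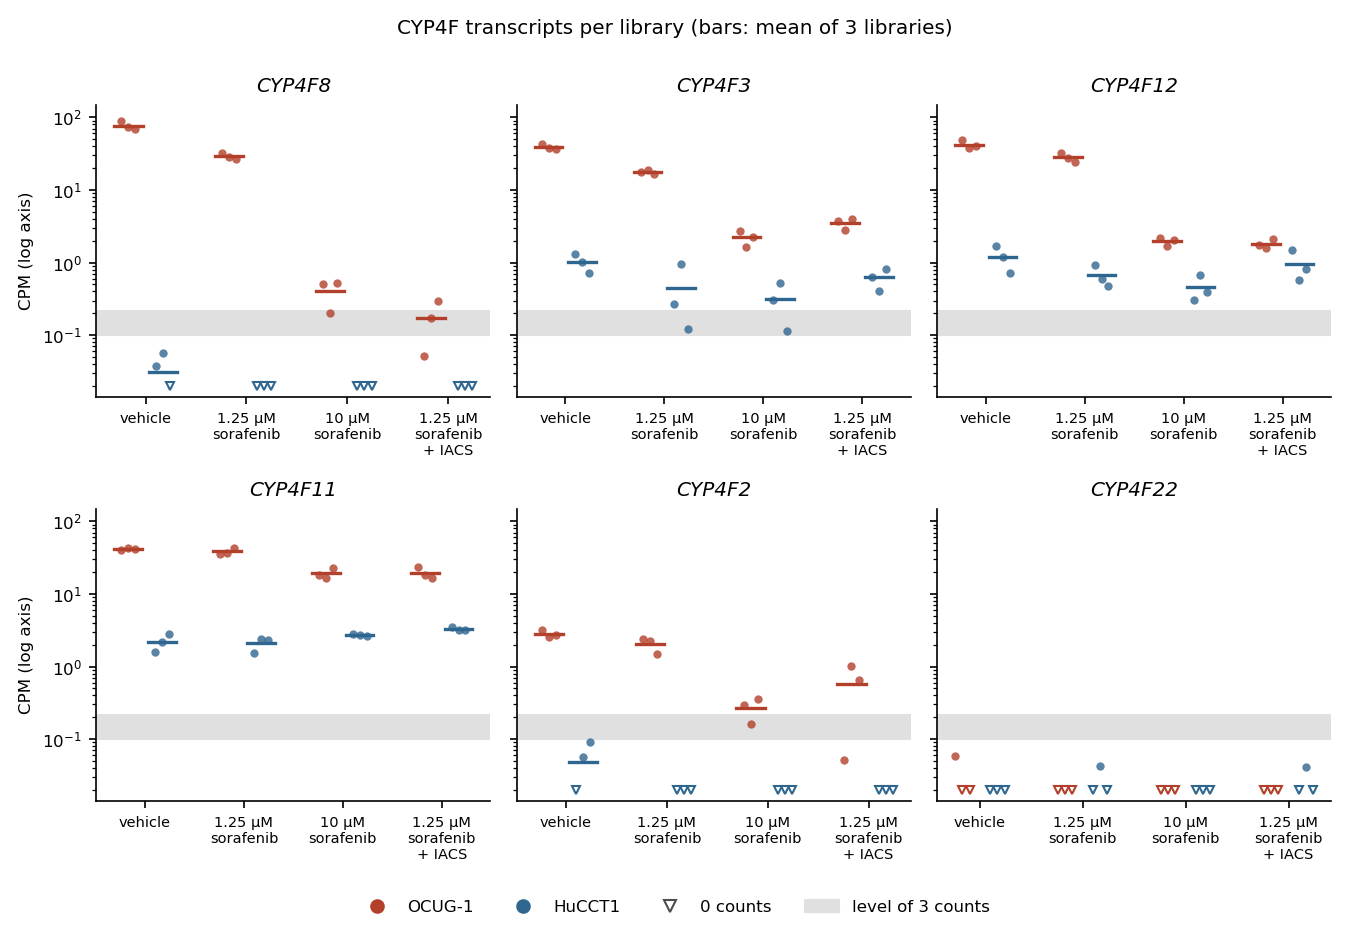
Level of each CYP4F gene per library in CPM on a log axis, for 4 arms of OCUG-1 (red) and HuCCT1 (blue), with bars at the mean of 3 libraries, open triangles for libraries with 0 counts and a grey band at the level of 3 counts. CYP4F8 lay between 69.0 and 88.6 CPM in OCUG-1 vehicle and at or below 0.517 CPM with 10 µM sorafenib or the combination, whereas CYP4F11 stayed above 16 CPM in every OCUG-1 library.

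Per kilobase of coding sequence, the order of levels in OCUG-1 changed with treatment. In vehicle, CYP4F8 led at 49.3 ± 6.61 CPM per kb (SD, n = 3), followed by CYP4F12 at 26.9 ± 3.41, CYP4F11 at 26.6 ± 0.645 and CYP4F3 at 24.8 ± 2.02, whose ranges overlapped. CYP4F2 was lower at 1.82 ± 0.198 CPM per kb, and CYP4F22 stood at 0.0123 CPM per kb from 1 count. With 1.25 µM sorafenib, CYP4F11 led at 24.5 ± 2.33 CPM per kb, and CYP4F8 and CYP4F12 followed with overlapping ranges at 18.6 ± 1.77 and 17.9 ± 2.58. With 10 µM sorafenib, CYP4F11 led at 12.3 ± 2.04 CPM per kb, followed by CYP4F3 at 1.42 ± 0.356 and CYP4F12 at 1.25 ± 0.163, with overlapping ranges. CYP4F8 had dropped to the fourth place at 0.264 ± 0.115 CPM per kb, where its range overlapped that of CYP4F2 at 0.175 ± 0.0646. With the combination, CYP4F11 again led at 12.5 ± 2.19 CPM per kb, and CYP4F8 was the fifth at 0.111 ± 0.0792, about the level of 3 counts and within the range of CYP4F2, which was the fourth at 0.368 ± 0.315. In HuCCT1 the order was the same in all 4 arms for the 3 genes above the floor, CYP4F11 ahead of CYP4F12 and CYP4F3, and the ranges of CYP4F12 and CYP4F3 overlapped in each arm. In HuCCT1 vehicle the ranges of CYP4F11 and CYP4F12 overlapped as well. The order in OCUG-1 depends on the length used. Per kilobase of all annotated exons, CYP4F8 and CYP4F11 stood close in OCUG-1 vehicle, at 10.9 and 10.4 CPM per kb. With 1.25 µM sorafenib CYP4F12, at 5.25 CPM per kb of exons, then stood above CYP4F8 at 4.13.

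CYP4F8, which in human seminal vesicles hydroxylates prostaglandin endoperoxides near the end of the chain, had the widest change of the family. In OCUG-1 it measured 88.6, 73.1 and 69.0 CPM in the vehicle libraries, 32.1, 28.3 and 26.8 CPM with 1.25 µM sorafenib, and 0.511, 0.204 and 0.517 CPM with 10 µM sorafenib. The combination gave 0.0517, 0.171 and 0.299 CPM. The 3 ranges of the dose series did not overlap, and the combination lay at about the level of 3 counts. In counts, CYP4F8 had 14, 5 and 10 reads with 10 µM sorafenib, and 1, 4 and 6 reads with the combination. Against vehicle its log2 fold change in OCUG-1 was -1.43 ± 0.15 with 1.25 µM sorafenib, -7.47 ± 0.23 with 10 µM sorafenib and -8.64 ± 0.26 with the combination (SE). Each SE is the size of the fold change divided by the square root of the test's F value. With so few reads in the 10 µM and combination arms, it understates the counting error of CYP4F8 there. Among 20511 tested genes it ranked 412, 7 and 1 from the lowest fold change in these comparisons, which share the vehicle libraries. Between the combination and 1.25 µM sorafenib alone it had a log2 fold change of -7.21 ± 0.27, the lowest of the 20511 genes. CYP4F8 passed the filter on low counts through the vehicle and 1.25 µM arms, where it was high. Its ranks are therefore a description, and no support is taken from them. In HuCCT1, CYP4F8 had 2 counts in all 12 libraries together, both in vehicle, and no fold change can be given.

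CYP4F3 is the leukotriene B4 omega-hydroxylase of neutrophils, with another splice form in liver and kidney. In OCUG-1 it measured 42.3, 37.4 and 36.5 CPM in vehicle, 17.8, 18.9 and 16.5 CPM with 1.25 µM sorafenib, and 2.74, 1.63 and 2.28 CPM with 10 µM sorafenib. With the combination it measured 3.77, 2.82 and 3.98 CPM, every library above every 10 µM library. Its log2 fold change against vehicle was -1.16 ± 0.15 at 1.25 µM, -4.05 ± 0.18 at 10 µM and -3.38 ± 0.17 with the combination. The counts are per gene and do not separate the splice forms. In HuCCT1 CYP4F3 was near the floor, with 35, 18 and 16 counts in vehicle, 4, 23 and 2 with 1.25 µM sorafenib, 9, 10 and 2 with 10 µM sorafenib, and 19, 10 and 20 with the combination. The HuCCT1 libraries of 10 µM sorafenib lay below those of vehicle without overlap (log2 fold change -1.69 ± 0.59), while replicate 2 of 1.25 µM sorafenib stood apart from the other two at 23 counts.

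CYP4F2, a main 20-HETE synthase of liver and kidney, had few reads even in OCUG-1. It had 54, 45 and 48 counts in vehicle, 37, 49 and 21 with 1.25 µM sorafenib, and 8, 4 and 7 with 10 µM sorafenib. The combination gave 1, 24 and 13 counts, a wide spread within 1 arm. Its log2 fold change in OCUG-1 was -0.50 ± 0.42 at 1.25 µM, -3.30 ± 0.52 at 10 µM and -2.16 ± 0.47 with the combination, all against vehicle. All 9 HuCCT1 libraries that received a drug had 0 counts of CYP4F2, which allows up to 3 counts per library.

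CYP4F12 is expressed in liver and gut and oxidises arachidonic acid and some antihistamines. In OCUG-1 it measured 48.4, 38.4 and 40.1 CPM in vehicle, 32.2, 27.9 and 24.1 CPM with 1.25 µM sorafenib, and 2.16, 1.68 and 2.07 CPM with 10 µM sorafenib. The combination gave 1.76, 1.58 and 2.14 CPM, which overlapped the 10 µM libraries. The fold changes against vehicle were -0.62 ± 0.14 at 1.25 µM, -4.35 ± 0.17 at 10 µM and -4.45 ± 0.18 with the combination, on the log2 scale. In HuCCT1 it had 45, 21 and 16 counts in vehicle, 14, 14 and 8 with 1.25 µM sorafenib, 9, 13 and 7 with 10 µM sorafenib, and 44, 14 and 20 with the combination. There the 10 µM libraries again lay below the vehicle ones without overlap, with a log2 fold change of -1.44 ± 0.47.

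CYP4F11, which hydroxylates long-chain 3-hydroxy fatty acids and vitamin K, kept the largest part of its transcript. In OCUG-1 it measured 40.8, 42.8 and 42.0 CPM in vehicle, 36.0, 36.9 and 42.7 CPM with 1.25 µM sorafenib, and 18.2, 16.8 and 22.9 CPM with 10 µM sorafenib. The combination gave 23.4, 18.4 and 16.8 CPM. The vehicle and 1.25 µM libraries overlapped (log2 fold change -0.15 ± 0.13), while the 10 µM and combination libraries lay below both. Against vehicle the log2 fold change was -1.05 ± 0.13 at 10 µM and -1.01 ± 0.14 with the combination. In HuCCT1 the gene measured 1.59, 2.15 and 2.77 CPM in vehicle, 1.54, 2.36 and 2.34 CPM with 1.25 µM sorafenib, and 2.78, 2.73 and 2.67 CPM with 10 µM sorafenib. The HuCCT1 combination libraries, at 3.55, 3.17 and 3.17 CPM, lay above all other HuCCT1 libraries, with a log2 fold change of 0.65 ± 0.24 against 1.25 µM sorafenib that was not called.

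CYP4F22, which in the epidermis hydroxylates ultra-long-chain fatty acids for the acylceramides of the skin barrier, was not detected above the floor in either line. It had 1 count in the 12 OCUG-1 libraries and 2 counts in the 12 HuCCT1 libraries. It was not tested in any comparison.

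Counted over the family in OCUG-1, 3 of 5 tested genes (CYP4F8, CYP4F3 and CYP4F12) were called lower with 1.25 µM sorafenib than with vehicle, beside 10.5% of all 20511 tested genes called. With 10 µM sorafenib CYP4F3, CYP4F12 and CYP4F11 were called lower than vehicle, beside 63.1% of genes called. CYP4F8 and CYP4F2 were called lower too, but they passed the filter through the vehicle and 1.25 µM arms, where they were high, so no support is taken from their calls. The other 3 OCUG-1 comparisons gave the same calls. The share of all genes called was 60.5% between 10 µM and 1.25 µM sorafenib, 58.1% between the combination and 1.25 µM sorafenib, and 59.5% between the combination and vehicle. Between 10 µM and 1.25 µM sorafenib the log2 fold change ran from -6.03 ± 0.24 for CYP4F8 to -0.90 ± 0.13 for CYP4F11. When IACS-010759 was added to 1.25 µM sorafenib, it was -3.83 ± 0.18 for CYP4F12, -2.22 ± 0.17 for CYP4F3, -1.66 ± 0.48 for CYP4F2 and -0.86 ± 0.14 for CYP4F11. CYP4F12 lost its call at 1.25 µM when replicate 1 of vehicle, replicate 2 of 1.25 µM sorafenib or replicate 3 of 1.25 µM sorafenib was left out (log2 fold change -0.61 to -0.51). In bulk RNA, fewer cells that express a gene and less of its mRNA per cell cannot be told apart.

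In HuCCT1, 3 genes passed the filter on low counts (CYP4F3, CYP4F12 and CYP4F11). With 10 µM sorafenib 2 of the 3, CYP4F3 and CYP4F12, were called lower than vehicle, beside 24.2% of 19576 genes called. Both calls were lost when replicate 1 or 2 of vehicle, or replicate 1 or 3 of 10 µM sorafenib, was left out, and that of CYP4F3 was also lost with library-size scaling. The other 4 HuCCT1 comparisons called 0 of the 3 genes by edgeR's quasi-likelihood test and 0 by DESeq2, which gave CYP4F3 no adjusted p in 2 of them. For the combination, CYP4F11 had an uncalled log2 fold change of 0.65 ± 0.24 against 1.25 µM sorafenib and of 0.61 ± 0.23 against vehicle. In these 4 comparisons, the share of all genes called was 18.5% for 1.25 µM sorafenib against vehicle, 28.2% for 10 µM against 1.25 µM sorafenib, 11.6% for the combination against 1.25 µM sorafenib and 20.1% for the combination against vehicle. CYP4F3 was called lower with 1.25 µM sorafenib when replicate 2 of that arm was left out (log2 fold change -2.39, against -1.05 with all 3 libraries).

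**Figure D2:**
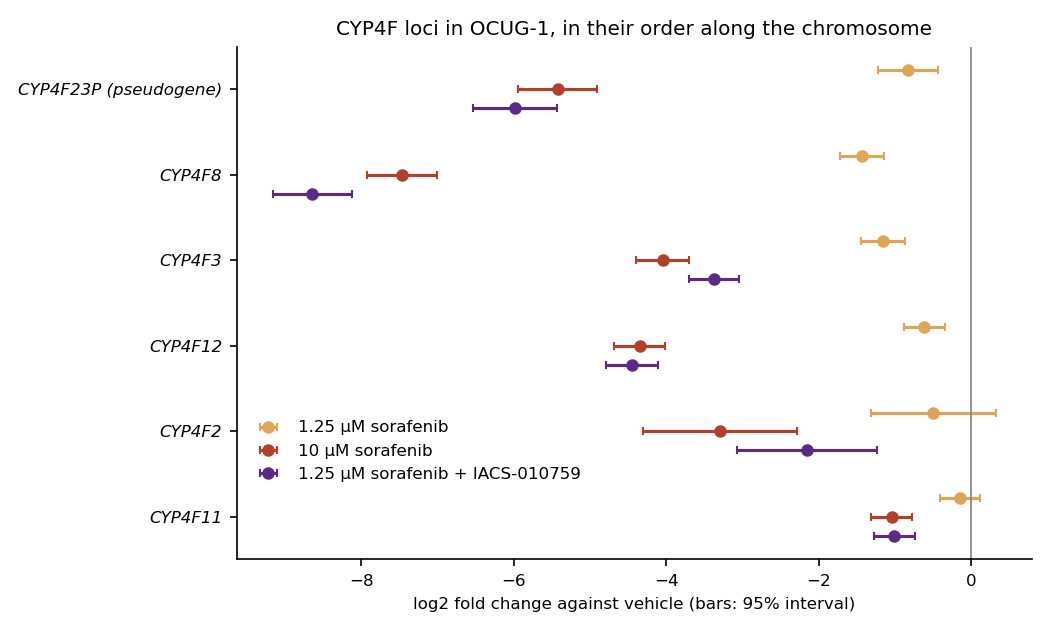
log2 fold change against vehicle in OCUG-1 with normal 95% intervals for 5 CYP4F genes and the pseudogene CYP4F23P, listed in their order along chromosome 19, for 1.25 µM sorafenib, 10 µM sorafenib and 1.25 µM sorafenib with IACS-010759. CYP4F8 reached -8.64 with the combination and CYP4F11 -1.01, and the intervals of the 2 genes were far apart. The intervals of CYP4F8 with 10 µM sorafenib and with the combination understate its counting error.

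These unequal changes altered the makeup of the family. The summed CPM of the 6 genes in OCUG-1 was 202.6 ± 18.0 in vehicle, 115 ± 4.54 with 1.25 µM sorafenib, 24.2 ± 3.84 with 10 µM sorafenib and 25.7 ± 2.94 with the combination (SD, n = 3 each). CYP4F8 supplied 37.9% of the family's counts in vehicle, 25.2% with 1.25 µM sorafenib, 1.71% with 10 µM sorafenib and 0.685% with the combination. CYP4F11 supplied 20.7%, 33.1%, 79.6% and 76.2% in the same 4 arms. In HuCCT1 the sum stayed between 2.75 and 5.68 CPM over all 12 libraries, and CYP4F11 supplied 47.5% of counts in vehicle, 64.1% with 1.25 µM sorafenib, 78.4% with 10 µM sorafenib and 66.9% with the combination. These shares are of counts and are not scaled for length. The coding lengths of the genes are nearly equal, but their annotated exons cover 2644 bases in CYP4F22, 4027 in CYP4F11 and 7048 in CYP4F8.

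**Figure D3:**
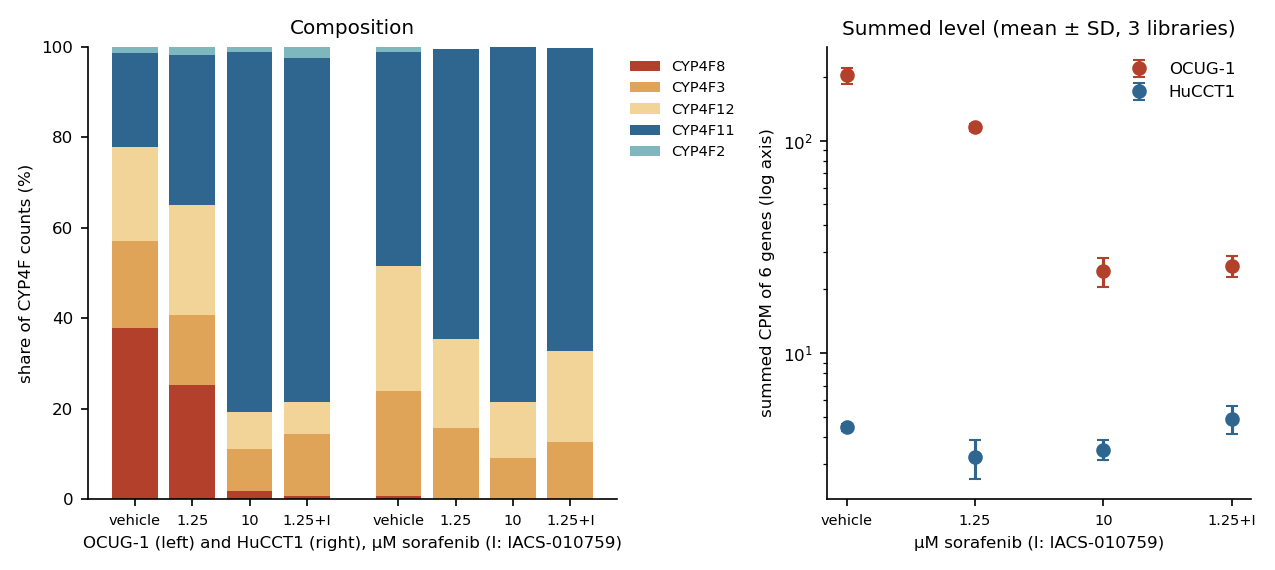
Left, share of all CYP4F counts held by each gene in the 4 arms of OCUG-1 and HuCCT1 (percent, CYP4F22 not drawn because it held at most 0.544%). Right, summed CPM of the 6 genes on a log axis, mean ± SD of 3 libraries, with CYP4F11 supplying 79.6% of a sum of 24.2 CPM in OCUG-1 with 10 µM sorafenib.

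The other CYP4F loci show how far the pattern reached. Of 19 further CYP4F IDs, 3 had more than 10 counts in a line. The pseudogene CYP4F23P, which encodes no enzyme, had nearly as many reads as CYP4F8 in OCUG-1 vehicle, with 1375, 1097 and 1169 counts in vehicle, 692, 881 and 507 with 1.25 µM sorafenib, and 43, 18 and 48 with 10 µM sorafenib. The combination gave 30, 18 and 17 counts. It fell in all 3 arms against vehicle, with a log2 fold change of -0.84 at 1.25 µM sorafenib (adjusted p = 0.0165), -5.42 at 10 µM sorafenib (adjusted p = 1.32e-10) and -5.98 with the combination (adjusted p = 1.19e-10). CYP4F23P was at 0 counts in all 12 HuCCT1 libraries, so its vehicle level was at least 503-fold higher in OCUG-1, against 3 counts per HuCCT1 library. CYP4F26P on chromosome 9 had a log2 fold change of 0.13 ± 0.28 with 10 µM sorafenib (adjusted p = 0.691) and of 0.57 ± 0.28 with the combination (adjusted p = 0.0859), against vehicle in OCUG-1. It was called higher with the combination than with 1.25 µM sorafenib (0.83 ± 0.28, adjusted p = 0.0174), although the libraries of those arms overlapped. CYP4F60P, also on chromosome 9, had a log2 fold change of -1.42 ± 0.54 with 10 µM sorafenib against vehicle (adjusted p = 0.0274). It stood at 0.329, 0.776 and 0.104 CPM with 10 µM sorafenib and at 1.296, 1.09 and 1.14 CPM in vehicle, without overlap. These values rest on few reads, with 9, 19 and 2 counts against 22, 19 and 20, and replicate 3 of 10 µM lay below the level of 3 counts. CYP4F60P also shared 22.9% of its 100-base windows with CYP4F25P. With the combination against vehicle its log2 fold change was -0.74 ± 0.52 and was not called (adjusted p = 0.223).

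With 10 µM sorafenib and with the combination, both against vehicle, genes around the cluster were called in both directions in OCUG-1. At 10 µM their shares were near that of all genes. Inside the span, 6 non-member genes were tested with 10 µM sorafenib against vehicle, and 3 were called lower and 1 higher, beside 63.1% of all genes called. The 3 lower were CYP4F23P, the long non-coding RNA UCA1 (9.82 ± 1.79 CPM with 10 µM sorafenib and 37.3 ± 5.03 CPM in vehicle, log2 fold change -1.85 ± 0.16, adjusted p = 1.97e-08) and the overlapping LINC01764 (-1.15 ± 0.32, adjusted p = 0.0046). The strand setting of the counting is not given, so reads of UCA1 and LINC01764 may be mixed. In the other direction, the highest log2 fold change among these 6 genes was 3.17 with 10 µM sorafenib and 3.12 with the combination, both against vehicle. Within 500 kb on either side of the span, 20 genes were tested and 7 were called higher and 6 lower, with a median log2 fold change of 0.01. FAM32A rose by 1.28 ± 0.13 on the log2 scale (adjusted p = 1.67e-07), and the tropomyosin TPM4 rose by 1.44 ± 0.19 (adjusted p = 6.28e-06). The receptor NOTCH3 fell by 1.42 ± 0.24 (adjusted p = 0.000197). With the combination against vehicle, 2 of the 6 inside the span were called higher and 3 lower, beside 59.5% of all genes. Outside it, 6 of the 20 were called higher and 4 lower. With 1.25 µM sorafenib against vehicle, 0 of the 6 inside the span were called higher and 3 lower, beside 10.5% of all genes. The log2 fold changes of these 6 genes ran from -1.48 to -0.54. Of the 20 outside the span, 0 were called higher and 1 lower at 1.25 µM.

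**Figure D4:**
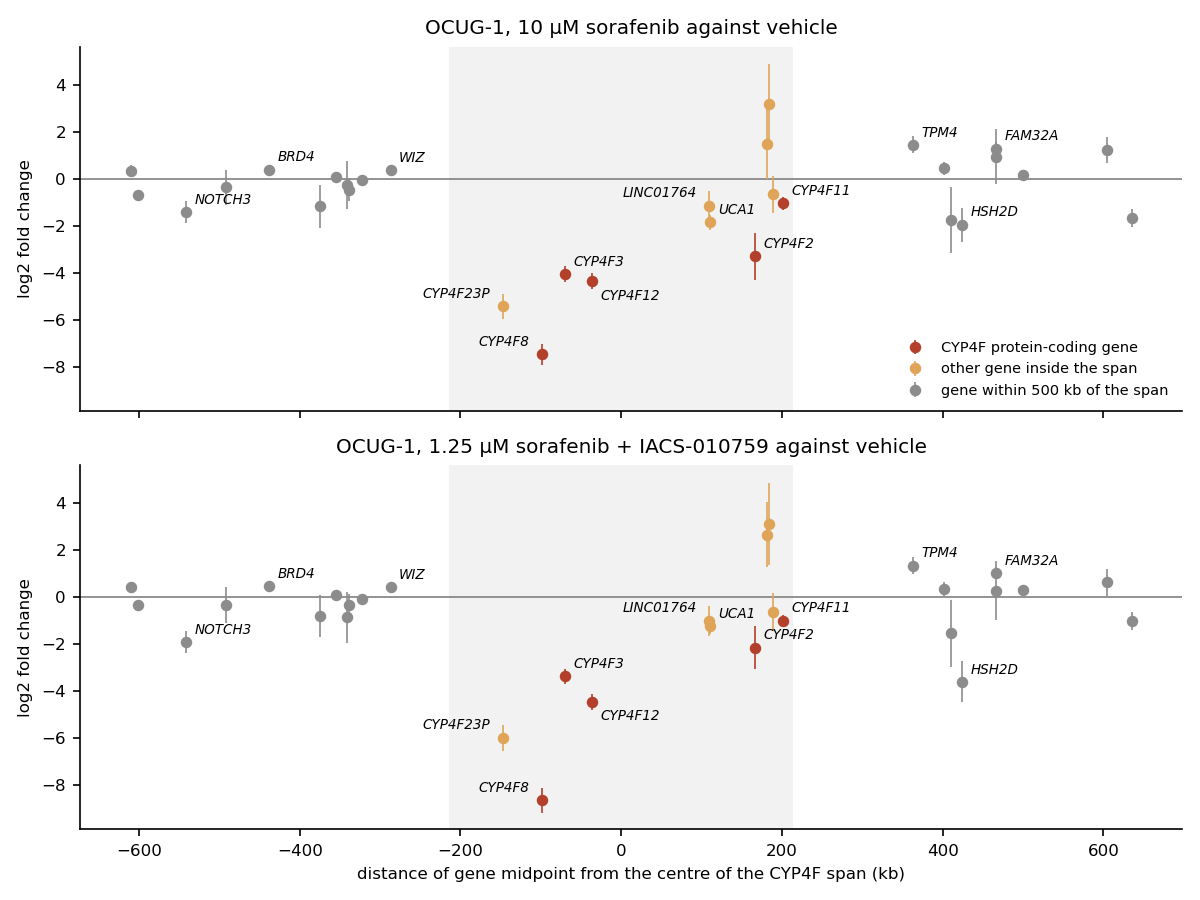
log2 fold change (bars, normal 95% interval) of tested genes in OCUG-1 against the distance of each gene's midpoint from the centre of the CYP4F span, in kb, for 10 µM sorafenib and for 1.25 µM sorafenib with IACS-010759, both against the same vehicle libraries. The span is shaded, CYP4F8 lies lowest at -7.47 and -8.64, and the 20 genes outside the span have medians of 0.01 in both panels. The intervals of CYP4F8 understate its counting error.

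The drug response of the lines was compared for the 3 genes with enough HuCCT1 reads. With 10 µM sorafenib against vehicle, the OCUG-1 response minus the HuCCT1 response was -2.42 ± 0.59 for CYP4F3, -2.96 ± 0.49 for CYP4F12 and -1.46 ± 0.25 for CYP4F11 on the log2 scale (SE), and all 3 were called, beside 43.8% of 22944 genes. For IACS-010759 added to 1.25 µM sorafenib the differences were -2.63 ± 0.51, -4.53 ± 0.43 and -1.62 ± 0.25 for the same genes, all called, beside 38.8% of genes. With 1.25 µM sorafenib against vehicle 0 of the 3 were called, beside 9.65% of genes. There the difference between lines was -0.12 ± 0.53 for CYP4F3, 0.31 ± 0.41 for CYP4F12 and -0.10 ± 0.26 for CYP4F11. DESeq2 also called 0 of the 3. HuCCT1 held too few reads of CYP4F8 and CYP4F2 for this comparison.

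**Figure D5:**
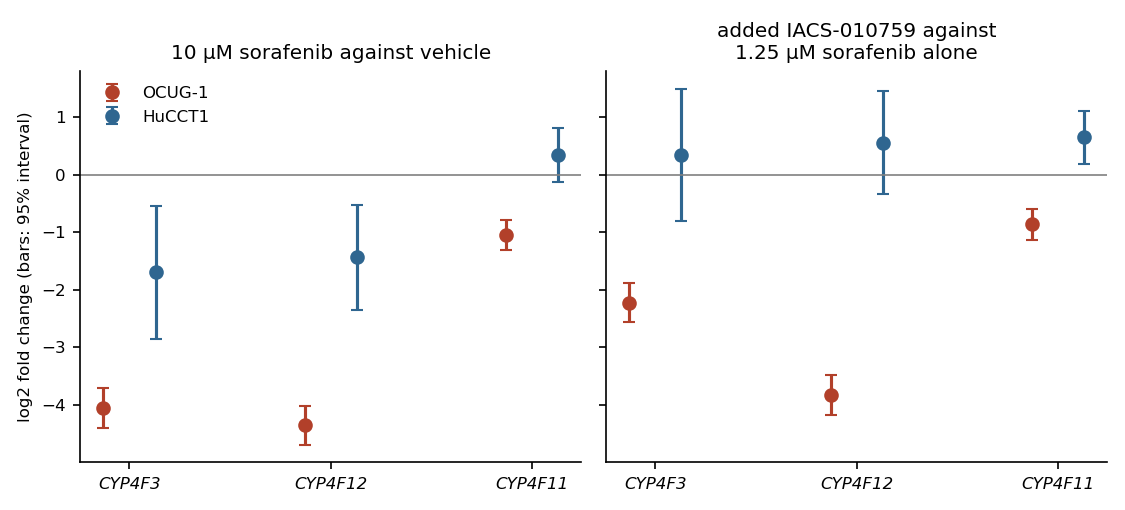
log2 fold change with normal 95% interval of CYP4F3, CYP4F12 and CYP4F11 in OCUG-1 (left of each pair) and HuCCT1 (right), for 10 µM sorafenib against vehicle and for IACS-010759 added to 1.25 µM sorafenib against 1.25 µM sorafenib alone. In the second panel the OCUG-1 values run from -3.83 to -0.86 and the HuCCT1 values from 0.34 to 0.65.

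Of 6 other CYP4 genes listed, 2 passed the filter on low counts in OCUG-1, and both were called lower with 10 µM sorafenib and with the combination than with vehicle, beside 63.1% and 59.5% of all genes called. CYP4X1, an orphan P450, had 9.06 ± 0.807 CPM in OCUG-1 with 10 µM sorafenib and 30.9 ± 2.82 CPM in vehicle (log2 fold change -1.70 ± 0.12, adjusted p = 1.79e-09). It had 6.12 ± 0.378 CPM with the combination and 30.6 ± 2.43 CPM with 1.25 µM sorafenib (-2.20 ± 0.13, adjusted p = 2.77e-10). CYP4V2, a fatty acid omega-hydroxylase of the eye and other tissues, fell in both lines with 10 µM sorafenib against vehicle, by 0.83 ± 0.12 in OCUG-1 (adjusted p = 7.42e-06) and by 0.87 ± 0.12 in HuCCT1 (adjusted p = 6.38e-05). Its difference between lines at 10 µM was -0.03 ± 0.17 (adjusted p = 0.92), whereas that of CYP4X1 was -2.37 ± 0.31 (adjusted p = 2.82e-07).

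The redox partners of these enzymes were all measured. Of 6 tested in OCUG-1, 2 were called higher and 1 lower with 10 µM sorafenib against vehicle (median log2 fold change 0.21, against 0.00 over all genes), beside 63.1% of all genes called. With the combination 0 were called higher and 2 lower than vehicle, beside 59.5%, and 0 higher and 3 lower than 1.25 µM sorafenib, beside 58.1%. P450 reductase, POR, had 74.2 ± 4.04 CPM with 10 µM sorafenib and 65.1 ± 2.57 CPM in vehicle (log2 fold change 0.26 ± 0.10, adjusted p = 0.033). Cytochrome b5, CYB5A, rose by 0.49 ± 0.14 (adjusted p = 0.00394), and the b5 reductase CYB5R3 fell by 0.30 ± 0.12 (adjusted p = 0.0318).

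Downstream of the omega-hydroxylases, the fatty aldehyde dehydrogenases showed the largest changes. Of 16 tested genes for the oxidation and peroxisomal shortening of omega-hydroxy acids in OCUG-1, 2 were called higher and 7 lower with 10 µM sorafenib against vehicle, with a median log2 fold change of -0.21. The combination gave 1 higher and 8 lower. These counts, like those of the lists that follow, are read against the 63.1% and 59.5% of all genes called in the same comparisons, and no list was tested as a set. ALDH3A1, which oxidises medium-chain aldehydes, had 15.4 ± 4.23 CPM with 10 µM sorafenib and 143 ± 14.7 CPM in vehicle (-3.15 ± 0.15, adjusted p = 1.34e-11). ALDH3A2, the fatty aldehyde dehydrogenase, had 65.5 ± 9.65 CPM with 10 µM sorafenib and 244 ± 10.3 CPM in vehicle (-1.83 ± 0.11, adjusted p = 2e-10), and ALDH3B1 fell by 1.53 ± 0.12 (adjusted p = 3.43e-09). In HuCCT1, 7 of 15 were called higher and 2 lower with 10 µM sorafenib against vehicle, beside 24.2% of all genes called. There ALDH3A1 and ALDH3A2 rose with 10 µM sorafenib against vehicle, by 1.24 ± 0.31 (adjusted p = 0.00778) and 0.36 ± 0.09 (adjusted p = 0.00843) on the log2 scale.

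Enzymes that make or break down eicosanoids, the substrates of several CYP4F proteins, moved both ways in OCUG-1. With 10 µM sorafenib against vehicle 7 of 25 were called higher and 11 lower (median log2 fold change -0.47), and with the combination 6 were called higher and 11 lower. PTGS2, the inducible cyclooxygenase, had 76.9 ± 11.2 CPM with 10 µM sorafenib and 9.10 ± 0.643 CPM in vehicle (3.15 ± 0.22, adjusted p = 5.84e-09). Prostacyclin synthase, PTGIS, had 70.7 ± 29.9 CPM with 10 µM sorafenib and 404 ± 29.3 CPM in vehicle (-2.45 ± 0.23, adjusted p = 3.19e-07). The epoxide hydrolase EPHX1 fell by 1.15 ± 0.10 (adjusted p = 1.99e-08). In HuCCT1 PTGS2 had 110.2 CPM with 10 µM sorafenib and 126.5 CPM in vehicle and was not called (-0.20 ± 0.35, adjusted p = 0.729).

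Genes of the acylceramide pathway, in which CYP4F22 acts in skin, were called higher in 6 and lower in 2 of 12 with 10 µM sorafenib against vehicle in OCUG-1 (median log2 fold change 0.23), although CYP4F22 itself was not detected. The combination gave the same counts. The epidermal lipoxygenase ALOXE3 had 47.1 ± 4.54 CPM with 10 µM sorafenib and 1.33 ± 0.324 CPM in vehicle (5.21 ± 0.18, adjusted p = 2.37e-13). The fatty acid elongase ELOVL4 rose to 5.66 ± 0.920 CPM with 10 µM sorafenib, against 1.52 ± 0.215 CPM in vehicle (adjusted p = 4.39e-06), and ELOVL6 fell by 1.40 ± 0.10 (adjusted p = 1.17e-09). Of 7 tested genes for vitamin K and E handling, 2 were called higher and 1 lower. NQO1, a quinone reductase, fell by 0.79 ± 0.10 (adjusted p = 2e-06).

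Other P450 genes for xenobiotics and sterols were called higher in 1 and lower in 7 of 14 with 10 µM sorafenib against vehicle in OCUG-1 (median log2 fold change -0.87). CYP3A5, a drug-metabolising enzyme, had 9.86 ± 0.533 CPM with 10 µM sorafenib and 55.8 ± 6.92 CPM in vehicle (-2.43 ± 0.17, adjusted p = 9.29e-10). It had 29.3 ± 6.88 CPM with 1.25 µM sorafenib (-0.96 ± 0.16 against vehicle, adjusted p = 0.0013). CYP3A4, the main drug-metabolising P450 of adult liver, and CYP39A1, an oxysterol hydroxylase, were low even in vehicle, at 1.37 ± 0.0526 and 1.04 ± 0.162 CPM.

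Transcription factors named as regulators of CYP4F genes in other systems were called higher in 5 and lower in 9 of 18 with 10 µM sorafenib against vehicle in OCUG-1 (median log2 fold change -0.48). SREBF1, the lipogenic sterol-response factor, had 64.2 ± 16.2 CPM with 10 µM sorafenib and 448 ± 41.8 CPM in vehicle (-2.73 ± 0.16, adjusted p = 1.16e-10). SREBF2, its cholesterol-directed relative, fell by 1.67 ± 0.10 (adjusted p = 2.65e-10), and the retinoid X receptor RXRB fell by 1.10 ± 0.10 (adjusted p = 3.58e-08). With 1.25 µM sorafenib 2 of the 18 were called higher and 0 lower, beside 10.5% of all genes, and SREBF1 had a log2 fold change of -0.22 ± 0.15 (adjusted p = 0.35). In HuCCT1 SREBF1 fell by 0.82 ± 0.11 with 10 µM sorafenib against vehicle (adjusted p = 7.43e-05).

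The genes most like each member across the 12 OCUG-1 libraries, by Pearson correlation of log2 CPM over 10338 protein-coding genes, were mostly genes that lost transcript in the same 2 arms. The 12 libraries fall into arms, so these values describe a shared pattern of arms and carry no test. For CYP4F8 they were the focal adhesion protein TNS3 (r = 0.996), SSBP3 and CIT (r = 0.996 each). For CYP4F12 they were the proliferation marker MKI67 (r = 0.999) and the mitotic kinesins CENPE (r = 0.996) and KIF20A (r = 0.996). For CYP4F3 they were AKR1C2, an aldo-keto reductase with a near-identical paralog that may share its reads (r = 0.992), NUMA1 (r = 0.992) and CCNF (r = 0.990). For CYP4F11 they were the mitotic kinase PLK1 (r = 0.984), HAPLN1 (r = 0.984) and PLA2R1 (r = 0.982), and for CYP4F2 they were ZC3H6 (r = 0.971), STXBP2 (r = 0.961) and FBXL2 (r = 0.960). The changes were not of like size: MKI67 averaged 68.6 CPM with 10 µM sorafenib and 220.7 CPM in vehicle, and AKR1C2 averaged 274.8 CPM with 10 µM sorafenib and 3124 CPM in vehicle. In HuCCT1 the closest were L3MBTL1 for CYP4F3 (r = 0.894) and TCEA2 for CYP4F12 (r = 0.872), among 9941 genes.

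Total counts ran from 14388855 to 24019011 per OCUG-1 library and from 18238834 to 30693736 per HuCCT1 library. Of 11 biliary epithelial markers, 8 averaged over 10 CPM in OCUG-1 and 10 in HuCCT1, and 0 were at 0 in either line. In OCUG-1 their summed level was 4628 to 5429 CPM in vehicle, 5880 to 7484 CPM with 1.25 µM sorafenib, 1189 to 1508 CPM with 10 µM sorafenib and 1449 to 1665 CPM with the combination, so it was low in the arms where the CYP4F genes were low. The 10 hepatocyte markers summed to 103 to 131 CPM in OCUG-1 vehicle, 34.6 to 36.5 CPM with 1.25 µM sorafenib, 8.87 to 11.02 CPM with 10 µM sorafenib and 5.84 to 8.63 CPM with the combination, with FGB alone above 10 CPM on average. The part of either list in the CYP4F results was not tested. The 7 neutrophil markers summed to at most 9.92 CPM in OCUG-1 and the 5 prostate and seminal vesicle markers to at most 0.383 CPM. The 5 fibroblast markers summed to 139 to 158 CPM in OCUG-1 vehicle, 174 to 196 CPM with 1.25 µM sorafenib, 61.1 to 96.6 CPM with 10 µM sorafenib and 48.3 to 63.2 CPM with the combination. The summed level of the 7 keratinocyte markers found was lowest in vehicle, at 55.7 to 70.1 CPM, and highest with 10 µM sorafenib, at 132.5 to 173 CPM. KRT10 alone averaged over 10 CPM among them, at 99.1 CPM, and 1 of the 7 was at 0 in OCUG-1. Endothelial markers summed to at most 10.2 CPM and immune markers to at most 5.05 CPM in OCUG-1. None of these lists was tested for a part in the CYP4F results.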

How the data were processed

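RNA was sequenced from 24 libraries, and the authors deposited a table of counts for each line, with whole reads per gene ID and no normalization. Per the submitters' processing notes, the tools were fastp 1.3.2, HISAT2 2.2.2, featureCounts of Subread 2.1.1, MultiQC 1.33, R 4.4.1 and DESeq2 1.42.1, with genome build GRCh38. For the annotation release, the strand setting and reads with several matches, the choice is not given in the sources used here. Extra runs of 4 OCUG-1 libraries were treated as technical replicates and counted as 1 replicate each.

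Counts were scaled with TMM factors in edgeR 4.0.16 (R 4.3.3), and CPM is the usual count scaled to library size. Within each line, 4 groups were fitted together by edgeR's quasi-likelihood test after filterByExpr (minimum count 10), and all 24 libraries were fitted for comparisons between lines. P-values were adjusted by Benjamini-Hochberg over all tested genes, and a gene was called at an adjusted p under 0.05. The script was tested on simulated data. Gene positions come from GENCODE, and those positions and the promoters share the build of the counts. Exact counting intervals and floors of 3 counts cover counting error only.

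The genes and lists were chosen with earlier results of these data known. Named from each list are up to 3 genes with the smallest adjusted p, from the correlation ranking the 3 protein-coding genes closest to each called CYP4F gene (at least 10 CPM in a group), and every other CYP4F locus. One gene of the vitamin K and E list is not reported here. Other genes near the cluster, and HuCCT1 values of named genes, were chosen after their values were seen. Replicates are labelled as biological, and p-values measure the spread between these cultures of 1 line. Alternatives were median-of-ratios scaling, library size alone, DESeq2 1.42.0, no filter, only the compared groups, the replicate block and leaving out each library.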

Additional observations from a re-analysis of the deposited data

Results flagged for a closer look

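The response of CYP4F3, CYP4F12 and CYP4F11 differed between the lines, by the interaction term of edgeR's quasi-likelihood fit over 24 libraries. For 10 µM sorafenib against vehicle, the log2 response in OCUG-1 minus that in HuCCT1 was -2.42 for CYP4F3, -2.96 for CYP4F12 and -1.46 for CYP4F11. For IACS-010759 added to 1.25 µM sorafenib it was -2.63 for CYP4F3, -4.53 for CYP4F12 and -1.62 for CYP4F11. All 6 differences kept their direction and their call under each alternative run. CYP4F3 and CYP4F12 had 2 to 45 counts per library in HuCCT1, and the 2 lines were kept in different media.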

How the results depend on the processing

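No called fold change changed sign. Of 684 alternative values for 54 tested fold changes, 667 kept their direction and their side of the threshold, and 33 of 36 calls held under every alternative. The 36 include calls of CYP4F8 and CYP4F2 between the vehicle lines, and in OCUG-1 with 10 µM sorafenib and the combination. Those calls follow from how these genes passed the filter, so that they held gives no support. The 3 exceptions were CYP4F12 in OCUG-1 with 1.25 µM sorafenib, and CYP4F3 and CYP4F12 in HuCCT1 with 10 µM sorafenib. In HuCCT1 with 10 µM sorafenib against vehicle, library size alone called 1 gene in place of 2, and leaving out a library gave 0 to 2. Leaving out a library gave 0 to 1 calls, in place of 0, for 1.25 µM sorafenib and for the combination against vehicle in HuCCT1. With the combination the added call was CYP4F11, without replicate 3 of vehicle. Library size alone also called CYP4F11 higher with the combination than with 1.25 µM sorafenib in HuCCT1 (0.83), a count of 1 in place of 0. The cause was not tested. Between 10 µM and 1.25 µM sorafenib in HuCCT1, the uncalled value of CYP4F3 was 0.70 without replicate 2 of 1.25 µM sorafenib, against -0.64 with it, and its uncalled difference between lines at 1.25 µM was 1.29, against -0.12 with it.

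The replicate block left every count of called genes as it was, for example 2 in HuCCT1 and 5 in OCUG-1 with 10 µM sorafenib against vehicle. The 5 include CYP4F8 and CYP4F2. Same-numbered libraries had a median correlation of deviations of 0.0505 in HuCCT1 and -0.0295 in OCUG-1, and 6 and 3 of 12 libraries were closest to their own number, so the numbers were not taken as pairs. With library size alone the all-gene median shifted to as much as 0.21, and the share of called genes that were higher shifted too, for example to 28.8% in place of 56.2% in OCUG-1 with 1.25 µM sorafenib and to 82.4% in place of 43.5% in HuCCT1 with the added IACS-010759. Depth limits CYP4F2, CYP4F22 and all HuCCT1 values.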
